A study of Drosophila simulans and Drosophila kikkawai and Drosophila takahashii with 176 samples.

Results

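The PH4alpha genes of Drosophila melanogaster encode alpha subunits of prolyl 4-hydroxylase, and their transcript levels were followed in the accessory gland (AG) and the testis of adult males. The genes are those with a PH4alpha symbol (PH4alphaEFB, PH4alphaMP, PH4alphaNE1, PH4alphaNE2, PH4alphaNE3, PH4alphaPV, PH4alphaSG1 and PH4alphaSG2). They were chosen with earlier results of these data known. All 8 were found among the 17727 genes listed for the species, and all 8 had a value above 0 in at least 1 library. The study sequenced poly(A) RNA from both organs of several Drosophila species, and the 8 D. melanogaster libraries are described here, 4 per organ. In each organ replicates 1 and 2 came from the genome reference strain y; cn bw sp, which carries recessive markers of body and eye colour, and replicates 3 and 4 came from the strain ED10, which the labels do not describe further. No library received a treatment. Each library was made from organs pooled from adult males of mixed stages, so the values are averages over individuals and over all cell types of the dissected organ, and less RNA per cell cannot be told apart from fewer cells of a type. Replicates here are libraries. The limma p-values set a difference against the spread between libraries of the same organ and strain, moderated over all genes.

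Prolyl 4-hydroxylase is an enzyme of the endoplasmic reticulum. Its alpha subunit carries the catalytic site, uses iron, 2-oxoglutarate and oxygen to hydroxylate prolines, and works in animals in a complex with protein disulfide isomerase. Its best known substrates are the collagens, whose triple helix depends on hydroxyproline, but other secreted proteins are also hydroxylated. Drosophila has an unusually large number of alpha subunit genes, and the PH4alpha genes were named after where their transcripts were seen in embryos: fat body (EFB), mouthparts (MP), proventriculus (PV) and salivary gland (SG1 and SG2), or nowhere (NE1, NE2 and NE3). The AG is a secretory epithelium that makes most proteins of the seminal fluid.

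Expression was measured in TPM, a level per length of transcript relative to all transcripts of the library, which the authors estimated for each gene. The values of a library added up to between 1070170 and 1959870 and not to 1000000, so they are relative levels on the authors' scale. Between 8.05% and 29.9% of the genes of a library were listed at 0. The organ labels were checked with marker genes. The summed level of 8 AG secretion genes was 54861 to 289239 TPM in AG libraries and 47.6 to 2751 TPM in testis libraries, and that of 10 germline genes was 8067 to 13031 TPM in the testis. In the AG of y; cn bw sp the germline genes added up to 398 and 459 TPM, against 6.75 and 1.5 TPM in the AG of ED10. In the testis of y; cn bw sp the AG secretion genes added up to 1008 and 2751 TPM, against 77.3 and 47.6 TPM in ED10. The y; cn bw sp libraries of both organs therefore held more transcripts typical of the other organ. Acp95EF, 1 of the 8 AG secretion genes, stood at 118699 and 87466 TPM in the AG of y; cn bw sp and at 0.033 and 0.54 TPM in that of ED10. In the testis it was at 445 and 1084.9 TPM in y; cn bw sp. In the testis of ED10 it was above its level in the AG of that strain, and made up 23.7 of the 77.3 TPM and 40.1 of the 47.6 TPM.

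All 8 genes are protein-coding and lie within 183 kb of chromosome arm 3R (chr3R:30466050-30648551, BDGP6 assembly, Ensembl annotation). PH4alphaEFB is the first and by far the longest gene (chr3R:30466050-30485799, plus strand, 19750 bases with 2248 in exons) and holds the gene spdo within its span on the same strand. PH4alphaSG2 (chr3R:30490074-30491987, plus strand) and PH4alphaMP (chr3R:30491813-30496153, minus strand) follow, and they overlap by 175 bases on opposite strands. PH4alphaNE1 (chr3R:30496751-30500326), PH4alphaSG1 (chr3R:30503665-30505661) and PH4alphaNE2 (chr3R:30510083-30512214) lie on the minus strand, and NE2 overlaps CG34041 of the plus strand by 64 bases. PH4alphaNE3 (chr3R:30604181-30606144, plus strand) and PH4alphaPV (chr3R:30646106-30648551, minus strand) lie farther along the arm. The exons of the 8 genes add up to between 1627 bases (NE3) and 2248 bases (EFB) in 5 to 9 blocks, and 1 transcript is annotated for each. Whether strand was used in estimating the levels, and how reads that match several genes of the family were shared, is not given in the sources used here.

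**Figure D1:**
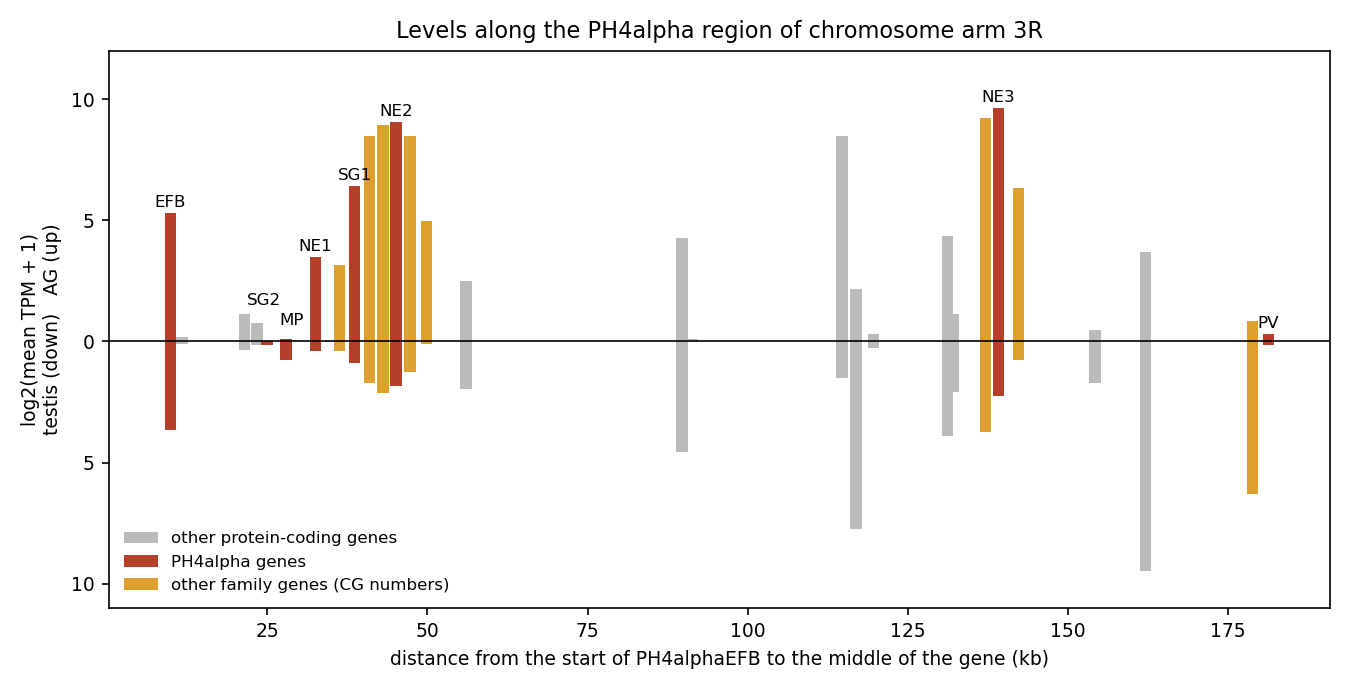
Mean level of each protein-coding gene between PH4alphaEFB and PH4alphaPV, as log2(mean TPM + 1) over 4 libraries, with the AG upward and the testis downward, against the distance in kb from the start of PH4alphaEFB to the middle of the gene. NE3 (785 TPM) and NE2 (536 TPM) stand highest of the red PH4alpha bars in the AG, and the tallest family bar in the testis is that of CG31013 (77.1 TPM), next to PV.

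PH4alphaNE3 and PH4alphaNE2, the genes named for their lack of embryonic transcripts, were the most abundant members in the AG. NE3 was at 516 and 1090.1 TPM in the AG of y; cn bw sp and at 721 and 812 TPM in that of ED10, and at 3.56, 11.1, 0.73 and 0 TPM in the 4 testis libraries. NE2 was at 272, 813, 603 and 457 TPM in AG libraries and at 1.87, 8.07, 0.38 and 0 TPM in testis libraries. For both genes every AG library lay far above every testis library, by 46.6 times for NE3 and 33.8 times for NE2 when the lowest AG value is set against the highest testis value. The AG means were 785 ± 238 TPM for NE3 and 536 ± 229 TPM for NE2 (SD, n = 4), which placed them 251st and 307th among 17727 genes. The difference between AG and testis on the log2(TPM + 1) scale was 7.92 for NE3 (SE 0.41, 95% interval 6.92 to 8.92, limma adjusted p = 7.79e-06). It was 7.67 for NE2 (SE 0.49, 95% interval 6.48 to 8.86, limma adjusted p = 1.95e-05). Both passed under every alternative that was run.

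PH4alphaSG1, known from the embryonic salivary gland, was the third most abundant member in the AG. On the deposited scale it had the largest ratio of highest to lowest value among the members above 1 TPM in all 4 AG libraries. It was at 75.2 and 203 TPM in y; cn bw sp and at 11.5 and 48.3 TPM in ED10, a range of 17.6 times, and at 0.59, 2.73, 0 and 0.17 TPM in the testis. Its lowest AG value was still 4.22 times its highest testis value. The log2 difference between AG and testis was 5.10 (SE 0.57, limma adjusted p = 0.000307).

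PH4alphaNE1 was present in the AG at a lower level. It was at 10.1, 15.4 and 13.8 TPM in AG replicates 1 to 3 but at 1.11 TPM in replicate 4, and between 0.018 and 0.53 TPM in the testis. The organs did not overlap, though replicate 4 came within 2.1 times of the highest testis library. The log2 difference was 2.74 (SE 0.61, limma adjusted p = 0.00784), and 3.44 without AG replicate 4. With the ED10 libraries alone it was 2.16 with adjusted p = 0.182.

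PH4alphaEFB, named for the embryonic fat body, was the member that both organs shared. Its AG values were 17.4, 45.0, 52.9 and 36.8 TPM and its testis values 6.95, 7.61, 9.88 and 21.6 TPM. It was the only member above 1 TPM in all 8 libraries. The organs overlapped on the deposited scale, since testis replicate 4 lay above AG replicate 1, and also after rescaling to 1000000 TPM. After median-of-ratios scaling of the libraries they did not overlap, with EFB at 30.0 to 52.7 in AG libraries and 6.35 to 16.8 in testis libraries. Its mean was 38.0 ± 15.2 TPM in the AG against 11.5 ± 6.83 TPM for the testis (SD, n = 4), a ratio of 3.31, and in the testis EFB was the most abundant member. The log2 difference was 1.67 (SE 0.39, 95% interval 0.74 to 2.60, limma adjusted p = 0.00921). On the deposited scale the exact permutation test over the 4 against 4 libraries gave p = 0.0571 (two-sided), where the smallest value the design allows is 0.0286. The ED10 libraries alone gave limma adjusted p = 0.0668. With only the 6 libraries that form 3 AG and testis pairs the log2 difference was 1.46, with limma adjusted p = 0.0625 with the pair as a replicate block and 0.0856 without it. Muscle transcripts moved in the same direction as EFB between the organs and within the testis. The summed level of 6 muscle genes was 417, 980, 463 and 806 TPM in AG libraries and 153, 192, 236 and 619 TPM in testis libraries. All 6 had a higher mean in the AG, with log2 differences of 0.42 to 1.64, of which wupA (1.64, limma adjusted p = 0.0145) and Mlc2 (1.20, limma adjusted p = 0.0309) passed. Within the AG the order differed, since EFB was highest in replicate 3 and the muscle sum in replicate 2. The part of muscle RNA in the level of EFB was not tested. Of 4 neuron genes only nSyb, a synaptic vesicle protein, was highest in testis replicate 4 (42.7 TPM, against 10.6 to 13.8 TPM in the others), while elav and brp were highest in replicate 3 and Syt1 in replicate 2. Fat body genes, 5 in number, added up to 1.42 to 22.9 TPM in AG libraries and 12.5 to 17.6 TPM in testis libraries.

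PH4alphaMP, PH4alphaPV and PH4alphaSG2 had AG levels below 1 TPM in every library. MP, known from the mouthparts, was at 0.085, 0.12, 0.074 and 0 TPM in AG libraries and at 0.83, 0.73, 0.15 and 1.11 TPM in testis libraries, so that every testis library lay above every AG library. Its log2 difference was -0.64 (SE 0.18, limma adjusted p = 0.0222). That call was lost when AG replicate 1, 2 or 4 or testis replicate 1 or 2 was left out, with limma adjusted p = 0.0591 to 0.0789, and with the ED10 libraries alone (adjusted p = 0.227). SG2 was listed at 0 in AG replicates 1, 2 and 4 and at 0.0010 TPM in replicate 3, against 0.034, 0.13, 0.086 and 0.13 TPM in the testis. Its log2 difference of -0.13 (SE 0.05) just missed the threshold (limma adjusted p = 0.0504). SG2 and MP overlap on opposite strands, and both were higher in the testis libraries than in the AG libraries; the part of shared reads in this was not tested. PV was at 0.022 to 0.48 TPM in AG libraries and 0.030 to 0.22 TPM in testis libraries, with overlapping organs and a log2 difference of 0.13 (limma adjusted p = 0.379).

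**Figure D2:**
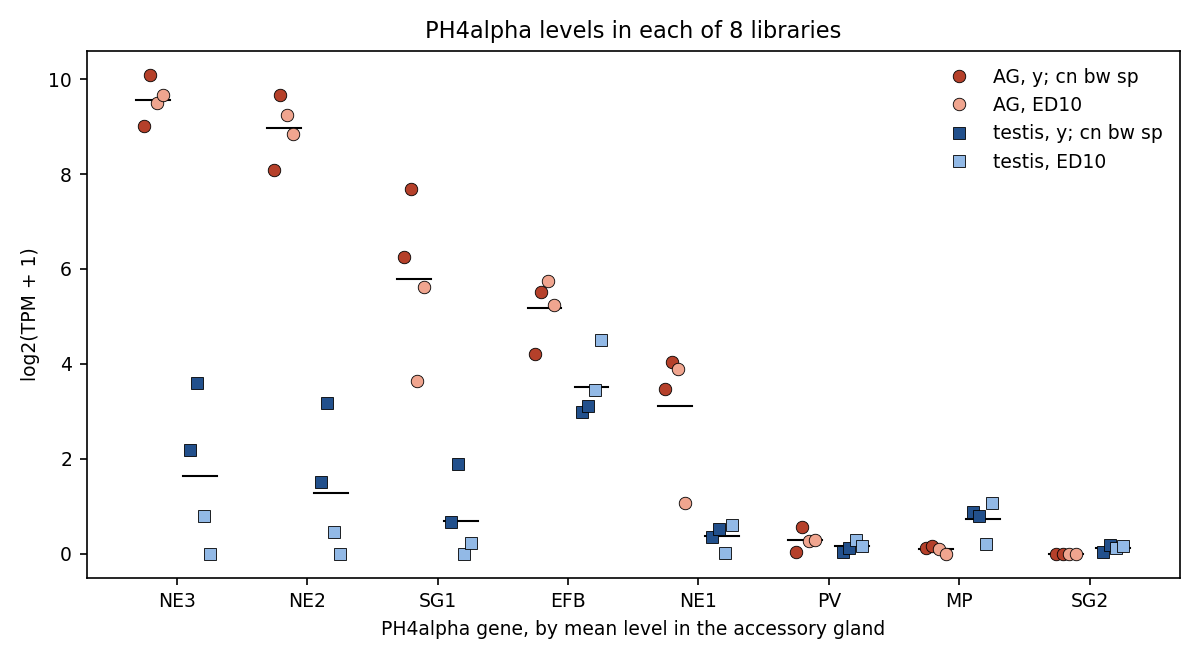
Level of each PH4alpha gene in each library, as log2(TPM + 1), with circles for the AG, squares for the testis, dark symbols for y; cn bw sp, pale symbols for ED10 and a bar at the mean of 4 libraries. NE3, NE2, SG1 and NE1 have all AG circles above all testis squares. EFB overlaps on the deposited scale shown, and MP, PV and SG2 stay near 0.

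Compared between the organs over all 8 genes, 5 members were higher in the AG (NE3, NE2, SG1, NE1 and EFB), 1 was higher in the testis (MP) and 2 did not pass (PV and SG2) at a limma adjusted p below 0.05. Of the 17124 genes tested, 13.2% were higher in the AG and 46.5% were higher in the testis by the same rule. The members had a median log2 difference of 2.20, and all genes tested had a median of -0.45. Every AG library was above every testis library for 4 members, as it was for 10% of all genes, and the reverse held for 2 members (MP and SG2), as it did for 41.4% of all genes. Relative to the median of all genes, MP differed by -0.19 and EFB by 2.12. With the ED10 libraries alone 3 members passed (NE3, NE2 and SG1), as did 7607 of the 16767 genes tested there. With the y; cn bw sp libraries alone 6 members passed, as did 8691 of 16848 genes. Each of these fits had 2 libraries per organ.

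**Figure D3:**
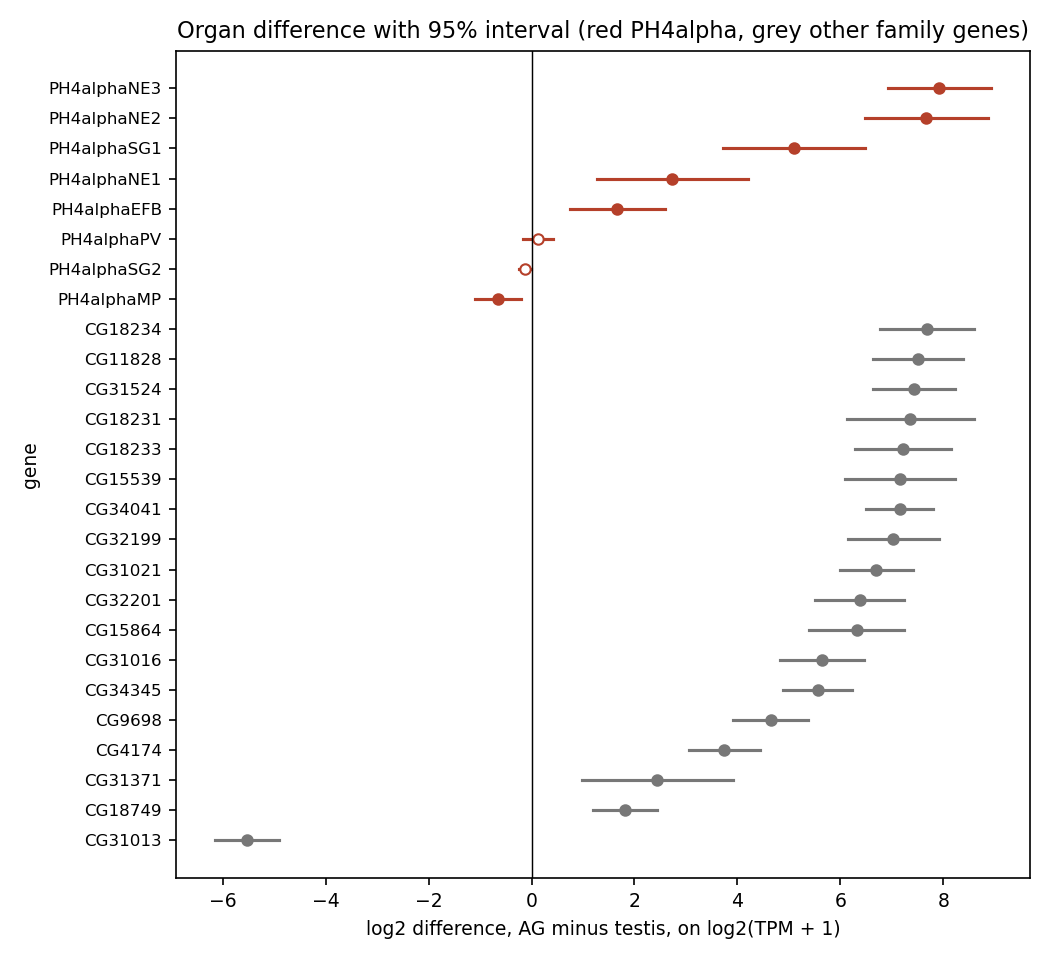
Difference between AG and testis for the 8 PH4alpha genes (red) and 18 other genes of the enzyme family (grey), as limma estimates on log2(TPM + 1) with 95% intervals, with open circles where the adjusted p was not below 0.05. The PH4alpha genes spread from -0.64 (MP) to 7.92 (NE3), and CG31013 is the family gene farthest toward the testis, at -5.52.

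The order of the members by mean AG level was NE3, NE2, SG1, EFB, NE1, PV, MP and SG2. NE3 was above NE2 in 4 of 4 libraries with a ratio of means of 1.46, although their ranges overlapped. NE2 and SG1 were apart in range, with a ratio of means of 6.34, and so were EFB and NE1 (3.77) and NE1 and PV (43.4). SG1 and EFB overlapped, with SG1 the higher in 3 of 4 libraries. In the testis the order was EFB, NE3, NE2, SG1, MP, NE1, PV and SG2, and the ranges of every pair of neighbours overlapped. Together the members made up 891 to 2167 TPM in an AG library and 11.5 to 30.9 TPM in a testis library. On the deposited scale replicate 1, a y; cn bw sp library, had the lowest AG value of NE3, NE2, EFB and PV. Replicate 2 of the same strain had the highest value of NE3, NE2, SG1, NE1, MP and PV. After median-of-ratios scaling replicate 4 had the lowest AG values of NE3 (663), NE2 (374) and EFB (30.0). Replicate 1 then had the highest values of NE1 and MP.

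The testis levels of NE3 and NE2, set against their AG levels, lay within the range of the AG secretion genes in both strains, and those of SG1 lay above it. In y; cn bw sp the testis mean was 0.911% of the AG mean for NE3, 0.916% for NE2 and 1.19% for SG1. In the same strain it was 0.450% to 0.933% over 7 AG secretion genes (median 0.806%), with Acp95EF left out after its values were seen. In ED10 the testis mean was 0.0474% of the AG mean for NE3, 0.0356% for NE2 and 0.285% for SG1, and 0.0320% to 0.0813% over the AG secretion genes. The 2 ED10 testis libraries set SG1 apart from NE3 and NE2, though SG1 was at only 0 and 0.17 TPM there. NE3 and NE2 were at 0.0948% and 0.0712% of the AG mean in replicate 3 and at 0 in replicate 4, and the AG secretion genes were also lower in replicate 4, whereas SG1 was at 0 in replicate 3 and at 0.571% in replicate 4. The testis mean of EFB was 23.3% of the AG mean in y; cn bw sp and 35.1% in ED10, and that of NE1 was 2.82% and 3.65%. Whether the testis values of NE3, NE2 and SG1 come from AG material was not tested.

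**Figure D4:**
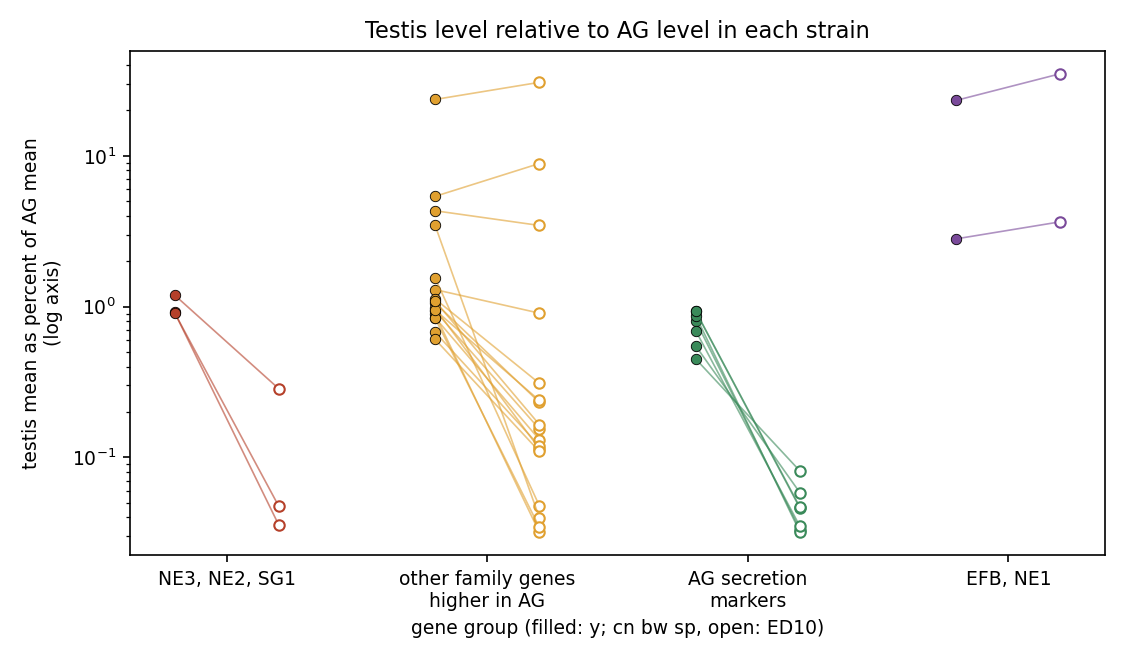
Mean testis level as a percent of the mean AG level in the same strain, on a log axis, with filled points for y; cn bw sp, open points for ED10 and a line joining the values of a gene. NE3 and NE2 lie among the AG secretion genes in both strains, SG1 lies above them (1.19% in y; cn bw sp and 0.285% in ED10), and EFB stays at 23.3% and 35.1%.

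The strains were compared within each organ. No member passed in the AG, where 10.3% of all genes did, and none passed in the testis, where 4.29% of all genes did (limma, adjusted p below 0.05). At an unadjusted limma p below 0.05 there was 1 member in the AG, where 3893 of the 17124 genes were. In the testis there were 2 members, where 2530 genes were. SG1 had the widest strain difference in the AG, with ED10 lower by a log2 difference of -2.33 (SE 0.81, limma adjusted p = 0.152), and it passed after median-of-ratios scaling of the libraries (-2.99, adjusted p = 0.0299). Without 1 library this difference ran from -1.34 (without AG replicate 3) to -3.32 (without AG replicate 4) and did not pass. In the testis NE3 and NE2 had log2 differences of -2.50 (SE 0.59, limma adjusted p = 0.0806) and -2.12 (SE 0.70, limma adjusted p = 0.205), in the direction of the AG secretion genes in the same libraries. In the AG, NE3 and NE2 had strain differences of 0.03 (95% interval -1.38 to 1.44) and 0.16 (95% interval -1.53 to 1.84). The strain difference itself was compared between the organs, and 0 of 8 members passed where 8.22% of all genes did. An unadjusted limma p below 0.05 was reached by 1 member, NE3 (log2 2.53, limma adjusted p = 0.151), and by 3289 of all genes. Leaving out a library changed these calls for NE1, which was lower in ED10 without AG replicate 3 (log2 -2.68, adjusted p = 0.016), and for MP without testis replicate 4 (-0.63 in the testis, adjusted p = 0.0176, and 0.54 between the organs, adjusted p = 0.0448). In these fits ED10 had 1 library in the organ concerned, which is assumed to vary like the other groups. The y; cn bw sp libraries were dissected by another person than the ED10 libraries, so strain and dissection cannot be told apart. All y; cn bw sp libraries were sequenced on a HiSeq 4000, the ED10 libraries of the AG on a HiSeq 3000 (replicate 3) and a HiSeq 2500 (replicate 4), and those of the testis on a HiSeq 4000 (replicate 3) and a HiSeq 2500 (replicate 4), so in the AG strain and sequencer cannot be told apart either. Without the 2 HiSeq 2500 libraries the genes called between the strains in the AG fell from 1768 to 592. Of the genes called between the strains in the AG 282 were higher and 1486 lower in ED10, and after rescaling each library to 1000000 TPM these were 493 and 1093.

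The PH4alpha genes were set beside other genes counted with the same enzyme family, which carry CG numbers only. Of 23 such symbols 18 were found, and their place in the family rests on general knowledge and was not checked against sequence. Of the 18, 17 were higher in the AG and 1 was higher in the testis, with a median log2 difference of 6.54. This held under each scaling of the libraries. CG18231 had the highest AG mean, with 869, 1725, 428 and 205 TPM against 3.98, 18.0, 0.67 and 0.16 TPM in the testis. CG18234 had the largest difference, 7.69 (SE 0.38, limma adjusted p = 6.05e-06). CG18749 and CG4174, chosen after their values were seen, were also steady in the testis, at 34.8 to 37.9 TPM and 21.6 to 26.8 TPM, beside 105 to 214 TPM and 257 to 677 TPM in the AG. CG31013, which lies beside PV, was the exception. It was at 0.66, 2.0, 0.15 and 0.40 TPM in AG libraries and at 93.5, 80.0, 69.1 and 66.0 TPM in testis libraries (log2 difference -5.52, SE 0.26, limma adjusted p = 4.86e-06), above every PH4alpha gene in the testis. In the 183 kb region 8 of the 18 genes stand among the PH4alpha genes. CG31371, the gene between NE1 and SG1, was chosen after its values were seen because it was low in the same library as NE1, with 8.41, 10.1 and 12.8 TPM in AG replicates 1 to 3 and 0.82 TPM in replicate 4. Replicate 4 was also the lowest AG library for the summed AG secretion genes (54861 TPM). The sum of 3 ejaculatory duct genes was lowest there too (281 TPM, against 526 to 2648 TPM in the others). Single genes differed, since SP, Acp95EF and Acp98AB were lowest in AG replicate 3 and Gld in replicate 2. The summed germline, fat body and hemocyte genes were also lowest in replicate 4, but the muscle and neuron genes were not. The part of any of these in the low values of NE1 and CG31371 was not tested.

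The collagen IV genes overlapped between the organs. Col4a1 and vkg encode the collagen IV chains of basement membranes and are the usual substrates considered for this enzyme. Col4a1 was at 7.97, 53.3, 6.71 and 1.52 TPM in AG libraries and at 8.51, 36.5, 21.4 and 18.3 TPM in testis libraries, and vkg at 3.66, 31.4, 4.39 and 0.94 TPM and at 5.58, 25.8, 13 and 10.8 TPM. In both organs replicate 2 was the highest for both genes, and the organs overlapped (log2 differences -1.01 and -1.05, limma adjusted p = 0.289 and 0.285). SPARC, a collagen-binding protein of basement membranes, was at 60.3 to 151 TPM in AG libraries and 43.0 to 91.5 TPM in testis libraries (0.50, limma adjusted p = 0.215). Plod, the lysyl hydroxylase that acts on collagen, was at 2.37 to 10.2 TPM and 3.86 to 15.6 TPM (-0.55, limma adjusted p = 0.367). Of 12 collagen and basement membrane genes found, 0 were higher in the AG, 3 were higher in the testis (Mp, Ndg and Loxl1) and 9 did not pass, with a median log2 difference of -0.44, beside -0.45 for all genes, and the same count of 3 had an unadjusted p below 0.05. Mp, which is not the PH4alpha gene MP, did not overlap between the organs. It was at 0.045 to 0.57 TPM in AG libraries and 1.24 to 12.7 TPM in testis libraries (-2.67, limma adjusted p = 0.00218). After median-of-ratios scaling 2 genes of this list passed as higher in the AG. Hemocytes are a known source of collagen IV, and 6 hemocyte genes added up to 11.1 to 29.2 TPM in AG libraries and 11.0 to 26.2 TPM in testis libraries. Hph, the prolyl hydroxylase that acts on the hypoxia factor Sima and not on collagen, was at 4.82 to 30.7 TPM in AG libraries and 20.2 to 41.4 TPM in testis libraries (-1.17, limma adjusted p = 0.0475), a call that was lost, among other alternatives, with a pseudocount of 5, without the filter, without the strain term and without the trend.

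The genes most like each member over the 8 libraries were sought by the root mean square difference of log2(TPM + 1), each gene centred on its mean, among the 5062 genes with at least 10 TPM on average in the AG. The libraries fall into separate organs, so this measure is set mainly by the organ difference. For NE3 the nearest were Qsox2, a gene of the sulfhydryl oxidase family (0.23), CG18234 (0.27) and NE2 (0.29). For NE2 they were CG32985 (0.19), CG18234 (0.24) and CG31493 (0.24). NE1 had no near neighbour closer than 0.39 (lncRNA:CR45097, P58IPK and Peritrophin-A), and SG1 none closer than 0.69 (lncRNA:CR43879, asRNA:CR45342 and lncRNA:iab8). EFB was close to CG5746 (0.14), to a gene without a symbol in the name table (0.17) and to Best1 (0.20). Among the 7565 genes with at least 10 TPM on average in the testis, EFB was nearest to kri (0.25), Hmu (0.26) and Esyt2 (0.29).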

How the data were processed

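The libraries were directional and poly(A)-selected. The authors trimmed reads with Trimmomatic and aligned them to the D. melanogaster genome with STAR (version 2.5.3 per the submitters' processing notes). They estimated abundances with StringTie. The deposited values are the authors' TPM per gene, read here as a signal because library totals differ from 1000000. No read counts were used, so the depth behind a value is unknown and no counting interval is given. Runs of a library share 1 column, and 0 per-sample columns were left out.

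The 2 tables, AG and testis, were joined on gene identifier (17727 genes, symbols for 17501). Values were analysed as log2(TPM + 1) with limma 3.58.1 in R 4.3.3 (lmFit, eBayes with trend), with 1 mean per organ and strain, over 17124 genes above 0 in at least 1 library. A fold change on this scale understates the change of low genes. P-values were Benjamini-Hochberg adjusted over all genes, with a threshold of 0.05. The script was tested on simulated data. Exact permutation tests used scipy 1.17.1.

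All members are named. Of the other family genes, those of highest mean per organ and largest difference are named, and of the collagen list Col4a1, vkg, Plod and SPARC first; Pdi, Tango1 and trol were not matched and are not analysed here. Members and lists were chosen with earlier results of these data known. Replicate numbers were given in accession order and pair nothing. The titles give adjacent library numbers to 3 AG and testis pairs (replicates 1, 2 and 4). Deviations from the organ and strain means correlated at 0.17 across genes within these pairs; the 2 pairs of y; cn bw sp give 1 value between them, since each group has 2 libraries. Alternatives covered the pseudocount, scaling, filters, the model, single libraries, the library pairs and the HiSeq 2500 libraries.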

Additional observations from a re-analysis of the deposited data

Results flagged for a closer look

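In 52 groups of 4 libraries (26 family genes in 2 organs) 4 had a library far from the others, by its gap relative to the range of the group. For normally distributed values chance gives about 1 in 20 groups, a rate that need not hold for TPM values. PH4alphaSG2 in the AG was listed at 0 in 3 libraries and at 0.0010 TPM in replicate 3, a pattern that the rule always flags. CG18749 reached 214 TPM in AG replicate 2 and was at 105 to 119 TPM in the others, and CG4174 reached 677 TPM in the same library and was at 257 to 307 TPM in the others. CG4174 was also lowest in testis replicate 4, at 21.6 TPM against 26.2 to 26.8 TPM. The annotated span of CG18749 is shared with CG33722 and that of CG4174 with CG13380 on the same strand, and CG4174 holds 5 other genes of the family on the opposite strand. How reads of shared spans were divided is not given in the sources used here.

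The strain difference of CG31021, the neighbour of PH4alphaNE3, differed between the organs by 3.96 on the log2 scale (SE 0.59, limma adjusted p = 0.0122). In the testis it was at 21.0 and 28.1 TPM in y; cn bw sp and at 0.39 and 0 TPM in ED10, and in the AG at 459, 960.5, 549 and 426 TPM. Its testis mean in y; cn bw sp was 3.45% of its AG mean, above the 0.450% to 0.933% of the AG secretion genes. No PH4alpha gene had such a difference past the threshold.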

How the results depend on the processing

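Between AG and testis, NE3, NE2 and SG1 kept their direction and stayed past the threshold in all 21 alternative limma fits (lowest log2 differences 6.59, 6.16 and 3.42). NE1 passed in 20 of 21 and EFB in 18 of 21, both failing with the ED10 libraries alone (2.16, adjusted p = 0.182, and 1.53, adjusted p = 0.0668) and EFB also with the 6 paired libraries, with or without the block. MP passed in 14 of 20 and SG2 in 6 of 20, both lower in the AG in all, and a filter on a mean of 1 TPM removed both and PV. PV changed sign without AG replicate 2 (-0.0010) and passed without AG replicate 1 (0.27). By the exact permutation test 6 members had p = 0.0286, with SG2 in place of EFB. This test takes no account of strain, and its p-values are not adjusted over genes. Any gene whose organs do not overlap gets this value, as 10% of all genes do with the AG higher and 41.4% with the testis higher. Leaving out 1 library gave 5 to 7 members called and 8718 to 10336 of all genes, where 10225 were called with all 8, and the ED10 libraries alone, chosen after seeing the data, gave 3 members.

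Between strains, 1 member instead of 0 was called in the AG after median-of-ratios scaling (SG1), and 1 in the testis without the 2 HiSeq 2500 libraries (MP). Leaving out 1 library gave 0 to 1 member in the AG (NE1, without AG replicate 3), in the testis and for the difference between organs (MP in both, without testis replicate 4). MP in the testis ran from -0.63 without replicate 4 to 0.24 without replicate 3, and its difference between organs from -0.33 without testis replicate 3 to 0.54 without testis replicate 4. NE1 in the AG turned from -1.27 to 0.13 without AG replicate 4 and without the HiSeq 2500 libraries, and passed without AG replicate 3 (-2.68). Over all genes, 1768 were called in the AG (1005 with a pseudocount of 5, 592 without the HiSeq 2500 libraries, 1180 to 2714 without 1 library, the highest without AG replicate 2). In the testis 734 were called (462 with a pseudocount of 0.1, 319 to 1215 without 1 library, with 403, 319 and 1215 without testis replicates 1, 2 and 3). For the difference between organs 1407 were called (763 with a pseudocount of 5, 184 without the HiSeq 2500 libraries, 320 to 1781 without 1 library, with 706 without AG replicate 4 and 320 and 472 without testis replicates 1 and 2). Of the collagen and basement membrane genes 3 were called, 5 after median-of-ratios scaling, 1 with a mean of at least 1 TPM, 1 with the ED10 libraries alone and 3 to 6 without 1 library, the highest without AG replicate 1. A fit without 1 library, or without the HiSeq 2500 libraries, leaves an organ and strain with 1 library, whose spread is taken from the other groups. The causes were not tested.

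Rescaling moved the median log2 difference of all genes from -0.45 to -0.57 (to 1000000 TPM) or -0.29 (median of ratios). Median-of-ratios scaling narrowed the range of NE3 over the AG libraries from 2.11 to 1.71 times. It widened that of NE1 from 13.9 to 22.3 times and left that of SG1 at 18.4 times. The replicate block over the 3 library pairs, chosen after seeing the data, called 5 members and 7479 genes, against 5 and 7476 in the same 6 libraries without it, and changed no call of a member relative to that fit. The strain comparisons were not fitted with the block, since ED10 has 1 such pair. The 3 members under 1 TPM in the AG rest on values whose read support is unknown.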

Other observations

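The 183 kb region also holds 13 protein-coding genes outside the enzyme family. Of these 13, only CG9702 had every AG library above every testis library, as 10% of all genes did. Its means were 358 and 1.84 TPM. Chosen for higher means in the testis were CG2267 (713 TPM, against 11.9 TPM in the AG) and Rpt6R, a relative of a proteasome subunit gene (211 TPM, against 3.50 TPM). The gene tmod, which encodes an actin-capping protein, was at 18.2 TPM in AG libraries and 22.6 TPM in testis libraries. The microRNA gene mir-4908, which lies within the family gene CG15539 on the same strand, was listed at 11.1 TPM in AG libraries and 0.14 TPM in testis libraries; the part of reads from the host gene was not tested. These genes were chosen after their values were seen.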
